A study of Ovis aries with 18 samples.

Results

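The proteasome subunit genes were the 45 gene symbols, of 20092 genes in the embryo count table, that begin with PSMA, PSMB, PSMC, PSMD, PSME, PSMF or PSMG followed directly by a number. They were 7 genes of the alpha ring and 10 of the beta ring of the 20S core, 6 ATPases and 13 non-ATPase genes of the 19S regulatory particle, 4 activators, 1 inhibitor and 4 assembly chaperones. PSMC3IP, a recombination factor that is no subunit, has letters after its number and was left out. PSMA6, PSMB8 and PSMD4 were not analysed here. The embryos were sheep blastocysts sired by Polypay rams, and the question was whether methionine in the diet of the sire went with a difference in the transcriptome of the embryos. The control rams (Ram410, Ram423 and Ram444) ate a control diet, and the methionine-treated rams (Ram424, Ram498 and Ram511) ate the same diet with 1.5 g (0.22%) of rumen-protected methionine added as a top-dress. Each meal was 0.45 kg of the diet. The diets lasted 77 days, and the rams were 88 days old on average at the start. Blastocysts, from early to hatched, were flushed 8 days after the rams were introduced and combined into 12 pools of 5 embryos, 6 per diet, by sire and dam. Each control ram sired 2 pools, whereas Ram424 sired 4 of the methionine pools and Ram498 and Ram511 sired 1 each, so the methionine group rests largely on 1 ram. The dam of a pool was not used here.

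The proteasome breaks down proteins that carry a ubiquitin tag. In its barrel-shaped core, outer rings of alpha subunits gate the entrance and inner rings of beta subunits hold the proteolytic sites. The regulatory particle binds tagged proteins, and its ATPases unfold them and feed them into the core. Interferon-induced beta subunits can replace the constitutive catalytic ones, and alternative activators can take the place of the regulatory particle. Embryos need the proteasome to clear maternal proteins and to pass through the cell cycle. The subunits of a complex are needed in set proportions, and many of their genes share transcription factors such as NFE2L1.

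The pools held 1017847 to 2398589 counts in genes, of which 0.172% to 0.427% fell in the proteasome genes. RNA of each pool was amplified before sequencing, so reads are not independent molecules. Spearman's coefficient over genes set a pair of pools apart. Embryo444_2 (control) and Embryo511_1 (methionine) had median coefficients of 0.582 and 0.6 with the other pools, whereas each of the 10 other pools had 0.820 to 0.857. The labels describe the cells as inner cell mass and trophectoderm. The 6 trophectoderm markers in the table, led by KRT8 and KRT18, summed to 5048 to 14120 CPM (counts scaled to the same library size) in the 10 other pools, but to 191.8 CPM in Embryo444_2 and 126 CPM in Embryo511_1. The 4 epiblast markers summed to 427.6 to 1209 CPM in the 10 pools and to 140.2 and 293 CPM in the pair, although PRDM14 was higher there (43.2 and 82.0 CPM, against 14.2 to 37.4 CPM). The 6 hypoblast markers summed to 437.7 to 958.5 CPM in the 10 pools and to 288.7 and 385.8 CPM in the pair. The 7 testis and sperm markers summed to 73.01 to 150.3 CPM in the 10 pools and to 477 and 1140 CPM in the pair, mostly from 1 gene in each, SPATA18 (388.4 CPM) in Embryo444_2 and TNP1 (993.3 CPM) in Embryo511_1. The 8 leukocyte markers summed to 305.4 and 473.7 CPM in the pair, above the 186.3 to 271.2 CPM of 9 other pools, and to 771.7 CPM in Embryo410_2, where CSF1R alone was at 629.3 CPM. PTPRC, the pan-leukocyte marker, was at 119 and 250.0 CPM in the pair and at 39.6 to 75.3 CPM in the 10 others. In Embryo444_2 the markers of endometrial epithelium (203.6 CPM) and of cumulus and granulosa cells (144.4 CPM) were also above the 10 other pools, which had up to 152.8 and 106.7 CPM. Of these markers, MUC1 (52.3 CPM, against 8.72 to 17.2 CPM) and HAS2 (104.6 CPM, against 34.49 to 65.83 CPM) stood out most. FOXJ1 was slightly above the 10 pools (39.75 CPM, against 12.6 to 36.98 CPM), and the remaining genes of these lists were within their range. Results are given below with and without this pair. In pooled embryos, fewer cells of a type and less RNA per cell cannot be told apart. Pools Embryo424_1 and Embryo424_2 were the most alike (Spearman's coefficient 0.955), but their counts differed by more than the sampling noise of reads (chi-square per degree of freedom 3.31, against 8.45 to 26.9 for other pools of a ram). Repeat amplifications of the same RNA could also differ so, and both were kept because the labels list them as separate pools.

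The summed level of the 45 genes was lowest in the pair of pools that stand apart and highest in 3 of the 4 pools of Ram424. In control pools it was 2983 and 2861 CPM for Ram410, 4128 and 2911 CPM for Ram423, and 3071 and 1409 CPM for Ram444. In methionine pools it was 4804, 4796, 4293 and 3721 CPM for Ram424, 2868 CPM for Ram498 and 1823 CPM for Ram511. The mean was 2894 ± 868 CPM in control pools and 3718 ± 1182 CPM in methionine pools (SD, n = 6), and the ranges overlapped. Without the pair that stands apart, it was 3191 ± 530 CPM and 4096 ± 818 CPM (SD, n = 5). The Ram424 pools also included the 3 pools with the most counts, and the part of depth in this order was not tested.

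**Figure D1:**
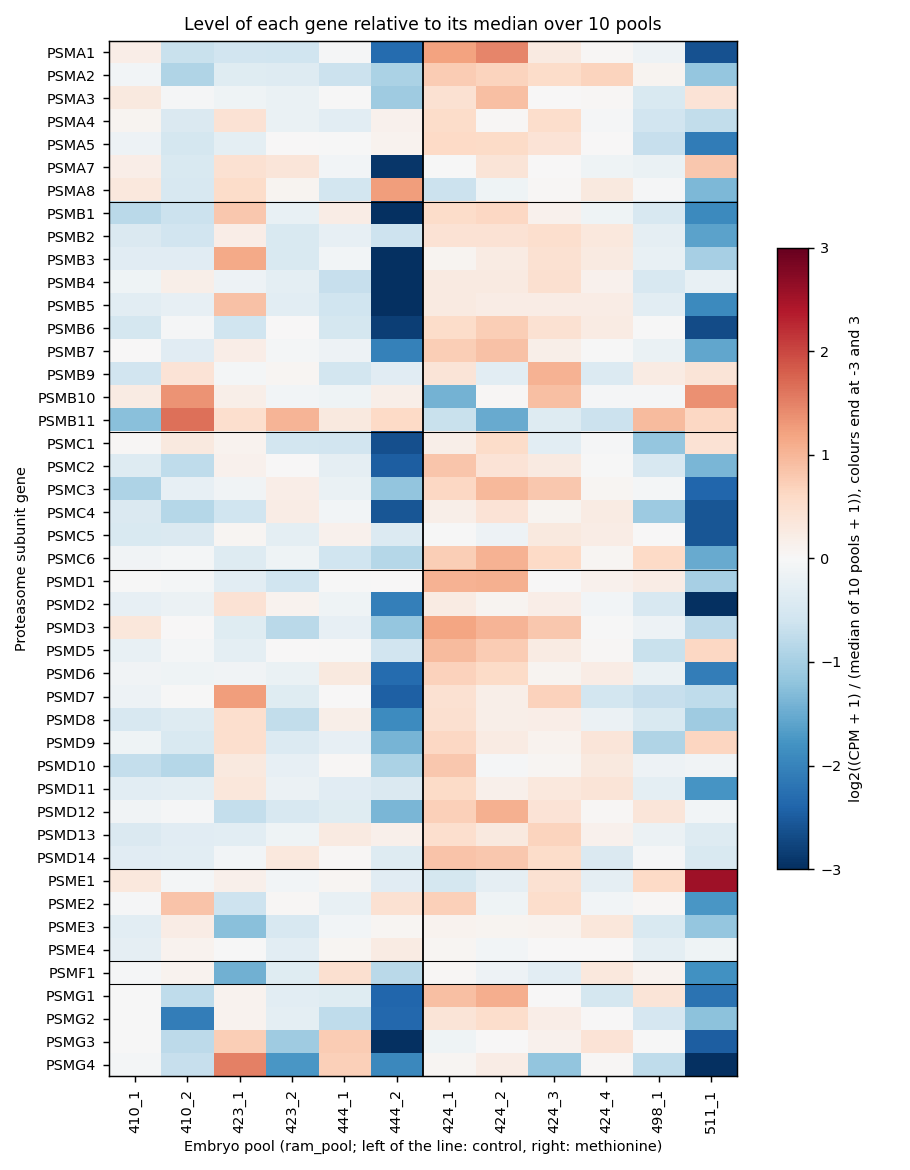
Level of each of the 45 proteasome subunit genes (rows, in order of subcomplex, divided by lines) in the 12 embryo pools (columns), as log2((CPM + 1) / (median + 1)) against the median of the 10 pools other than Embryo444_2 and Embryo511_1. Blue columns mark those 2 pools, red cells gather in the first pools of Ram424, and PSME4 is close to its median in every pool.

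PSMA1 and PSMA2 of the alpha ring had the largest log2 fold changes among genes of the core. PSMA1 ranged from 19.5 to 116 CPM in control pools (median 67.3 CPM) and from 15.6 to 283 CPM in methionine pools (median 113 CPM). Its coefficient of variation over the 12 pools, 74.2%, was among the 3 highest of genes with a mean of at least 10 CPM, and its fold change was 0.98 ± 0.50 (log2, SE) with an FDR of 0.662 by edgeR. PSMA4 was among the 3 steadiest, with 29.5% and a level of 26.4 to 65.9 CPM. PSMA2 had 36.3 and 20.2 CPM in the pools of Ram410, 29.6 and 29.1 CPM in those of Ram423, and 24.5 and 19.5 CPM in those of Ram444. The methionine pools had 65.9, 61.9, 57.0 and 61.5 CPM for Ram424, 40.9 CPM for Ram498 and 16.6 CPM for Ram511. All pools of Ram424 and Ram498 were above all control pools, and the pool of Ram511 was below them. The means were 26.5 ± 6.39 and 50.6 ± 18.8 CPM (SD, n = 6), a log2 fold change of 0.94 ± 0.31 (SE) with an unadjusted p of 0.00765 and an FDR of 0.584 by edgeR. PSMA3 and PSMA5 had log2 fold changes of 0.44 ± 0.28 and 0.17 ± 0.35 (SE).

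PSMA8 replaces PSMA7 in the core of male germ cells. PSMA7 was at 43.3 to 81.7 CPM in the 10 concordant pools, at 6.97 CPM in Embryo444_2 and at 105 CPM in Embryo511_1. PSMA8 went the other way in the pair: it was at 11.8 to 28.2 CPM in the 10 pools, at 46.7 CPM in Embryo444_2 and at 6.84 CPM in Embryo511_1. SPATA18 was highest in Embryo444_2, as PSMA8 was, and TNP1 was highest in Embryo511_1, where PSMA8 was lowest. The part of germ cell RNA in the level of PSMA8 was not tested. In the table of gene positions, PSMA7 and PSMA8 each overlap another gene. Log2 fold changes by diet were 0.28 ± 0.39 for PSMA7 and -0.56 ± 0.38 for PSMA8 (SE), with FDRs of 0.866 and 0.725 by edgeR.

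The constitutive beta ring genes were low in Embryo444_2. PSMB5, PSMB6 and PSMB7 hold the chymotrypsin-like, caspase-like and trypsin-like sites, and PSMB1 to PSMB4 complete the ring. All 7 were below the lowest of the 10 concordant pools in Embryo444_2. PSMB3, with the highest mean of the 45 genes (364 CPM, not scaled for length), was at 272 to 825 CPM in the 10 pools and at 7.67 CPM in Embryo444_2, 2.05% of the median of the others. PSMB4 and PSMB5 were at 4.88 and 3.49 CPM there, 2.64% and 2.91% of that median. In Embryo511_1 the reduction was uneven: PSMB6 was at 15% of the median, PSMB5 at 26.1%, PSMB3 at 50.1% and PSMB4 at 85.1%, the last within the range of the 10 pools.

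The catalytic genes had wide errors in the diet comparison. PSMB5 had 3.49 to 222 CPM (median 96.2 CPM) in control pools and 31.3 to 144 CPM (median 140 CPM) in methionine pools, a log2 fold change of 0.21 ± 0.55 (SE). PSMB6 had 118 ± 52.9 and 193 ± 91.1 CPM (SD, n = 6), a log2 fold change of 0.72 ± 0.48 with an FDR of 0.722 by edgeR. PSMB7 had 74.2 ± 28.2 and 101 ± 49.0 CPM, a log2 fold change of 0.45 ± 0.38 with an FDR of 0.778 by edgeR. PSMB2 and PSMB4 had log2 fold changes of 0.45 ± 0.31 and 0.56 ± 0.50, and PSMB1 and PSMB3 had 0.24 ± 0.48 and 0.18 ± 0.61 (SE).

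The immunoproteasome and thymus subunits were at low levels in all pools. PSMB9, which replaces PSMB6, was at 11.1 to 36.2 CPM, and its lowest and highest pools were both among the 10 concordant ones. Its gene lies beside TAP1, a peptide transporter of antigen presentation, which ranged from 25.9 to 173 CPM and was highest in Embryo410_1, where PSMB9 was lowest. PSMB10, which replaces PSMB7, had at least 15 counts in only 3 pools and was the 1 member that failed the filter. It was at 15.3 CPM in Embryo410_2 and 15.6 CPM in Embryo511_1, and at 1.41 to 11.1 CPM elsewhere. PSMB11, the beta subunit known from thymic epithelium, was at 2.22 to 23.0 CPM in control and 1.67 to 13.6 CPM in methionine pools, with the highest level again in Embryo410_2. Its log2 fold change of -0.86 ± 0.54 (SE) was the lowest of the 44 genes tested (FDR 0.706 by edgeR). Genes of other tissues had counts at similar or higher levels, such as CD2 of lymphocytes, with means of 18.9 and 18.5 CPM, and AKAP4 of the sperm tail, with 44.5 and 30.6 CPM. Whether counts at this level stem from expression in the embryo was not tested.

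The 6 ATPases of the regulatory particle, PSMC1 to PSMC6, form the ring that unfolds substrates. Their sum was 243 and 239 CPM in the pools of Ram410, 291 and 304 CPM in those of Ram423, and 276 and 112 CPM in those of Ram444. It was 423.2, 446, 387 and 342 CPM for Ram424, 252 CPM for Ram498 and 118 CPM for Ram511. All 4 pools of Ram424 were therefore above the 8 others, while the pool of Ram498 lay within the control range. All 6 genes had a positive log2 fold change, against 50.5% of all genes, and the median of the 6 was 0.45. PSMC6 had 32.6, 33.5, 26.8, 32.2, 23.1 and 18.8 CPM in the control pools in the same order. It had 58.8, 73.6, 53.5 and 36.8 CPM for Ram424, 54.0 CPM for Ram498 and 11.7 CPM for Ram511. Its means were 27.8 ± 5.99 and 48.1 ± 21.4 CPM (SD, n = 6), a log2 fold change of 0.79 ± 0.34 with an FDR of 0.608 by edgeR. The other 5 had log2 fold changes of 0.08 (PSMC5) to 0.67 (PSMC3). PSMC5 was the steadiest of them over the 10 concordant pools, at 49.7 to 84.1 CPM, and was at 50.9 CPM in Embryo444_2 but at 10.7 CPM in Embryo511_1.

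**Figure D2:**
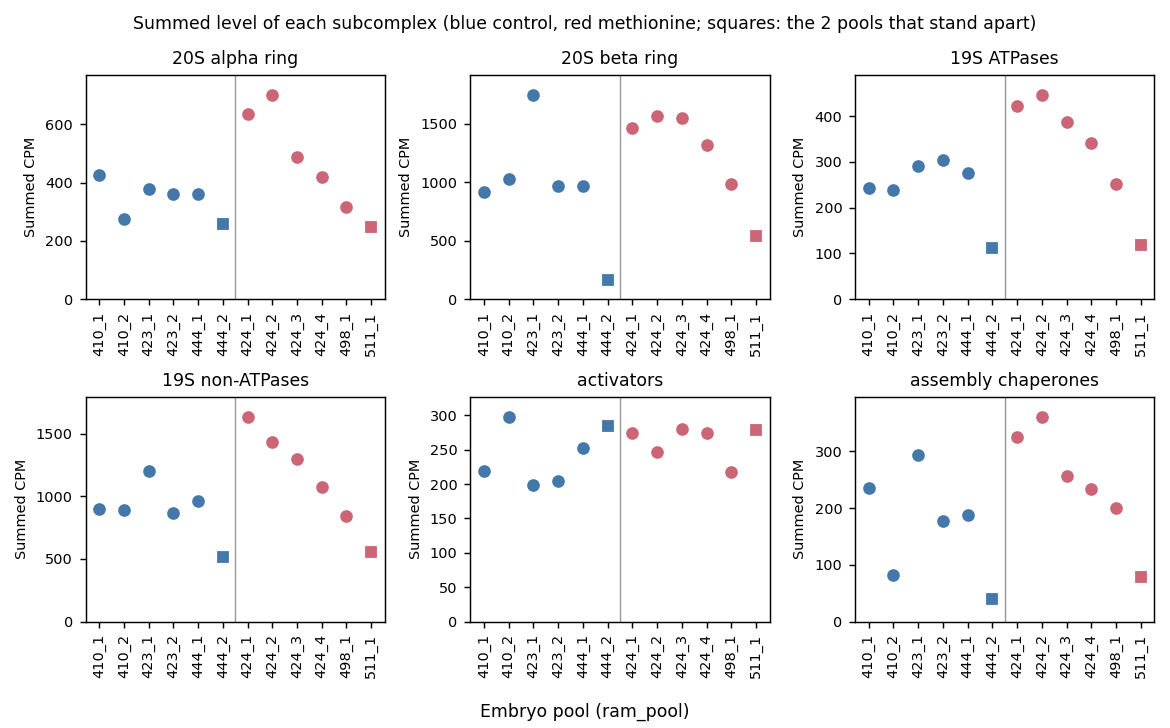
Summed CPM of the genes of each subcomplex (vertical axes, from 0) in each of the 12 pools (horizontal axes), with control pools left of the line and methionine pools right of it. Squares are Embryo444_2 and Embryo511_1, which have the lowest sums of the ATPases (112 and 118 CPM) but not of the activators, and the Ram424 pools have the 4 highest sums of the ATPases (342 to 446 CPM).

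The 13 non-ATPase genes encode the scaffold and lid of the regulatory particle, its deubiquitinase PSMD14, and the assembly factors PSMD5, PSMD9 and PSMD10. Of these, 11 had a positive log2 fold change, against 50.5% of all genes, and 3 were higher at an unadjusted p under 0.05, against 3.55% of all genes. PSMD12, a scaffold subunit of the lid, had 51.9 and 54.4 CPM in the pools of Ram410, 33.8 and 39.8 CPM in those of Ram423, and 43.3 and 20.9 CPM in those of Ram444. It had 92.7, 119, 75.1 and 57.6 CPM for Ram424, 72.9 CPM for Ram498 and 52.7 CPM for Ram511. The groups overlapped only in that the pool of Ram511 was below a single control pool. The means were 40.7 ± 12.3 and 78.3 ± 24.4 CPM (SD, n = 6). The log2 fold change was 0.95 ± 0.27 (SE), with an unadjusted p of 0.00318 and an FDR of 0.584 by edgeR. An exact two-sided permutation test on log2(CPM + 1) gave p = 0.00433 over pools, which treats pools of a ram as independent. Over the means of 6 rams it gave an exact p of 0.2, where the smallest p possible is 0.1. For the other genes with an unadjusted p under 0.05, the exact test gave larger values. Over pools the exact p was 0.0455 for PSMA2, 0.156 for PSMC6, 0.0952 for PSMD3 and 0.0758 for PSMD5. Over ram means the exact p was 0.5, 0.8, 0.7 and 0.4 in that order.

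PSMD3, another scaffold subunit, had 107 and 86.5 CPM for Ram410, 66.2 and 48.0 CPM for Ram423, and 72.0 and 37.7 CPM for Ram444. It had 195, 173, 150 and 83.8 CPM for Ram424, 75.9 CPM for Ram498 and 48.8 CPM for Ram511. Only 3 pools of Ram424 were above all control pools. The log2 fold change was 0.80 ± 0.35 (SE) with an FDR of 0.608 by edgeR, and it was -0.15 without Ram424. PSMD5, which helps to assemble the base of the particle, had 30.0 to 46.1 CPM in control pools (median 40.9 CPM). In methionine pools it had 89.0, 78.1, 54.2 and 46.5 CPM for Ram424, 28.5 CPM for Ram498 and 70.3 CPM for Ram511. Its log2 fold change was 0.61 ± 0.27 (SE) with an FDR of 0.611 by edgeR. In both pools of the pair it lay within the range of the 10 others.

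The other non-ATPase genes had log2 fold changes of -0.05 (PSMD2) to 0.56 (PSMD1). PSMD2, which binds ubiquitin receptors, was at 129 to 244 CPM in the 10 concordant pools, at 43.2 CPM in Embryo444_2 and at 10.7 CPM in Embryo511_1, 5.93% of the median of the others. PSMD11, which clamps the lid to the base, had the second highest mean (178 CPM) and was at 53.7 CPM in Embryo511_1. PSMD7, which pairs with PSMD14, was at 176 CPM in Embryo423_1 and at 12.6 to 119 CPM in the 11 other pools. PSMD13 was among the 3 steadiest genes, at 38.5 to 84.8 CPM with a coefficient of variation of 27.1%.

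**Figure D3:**
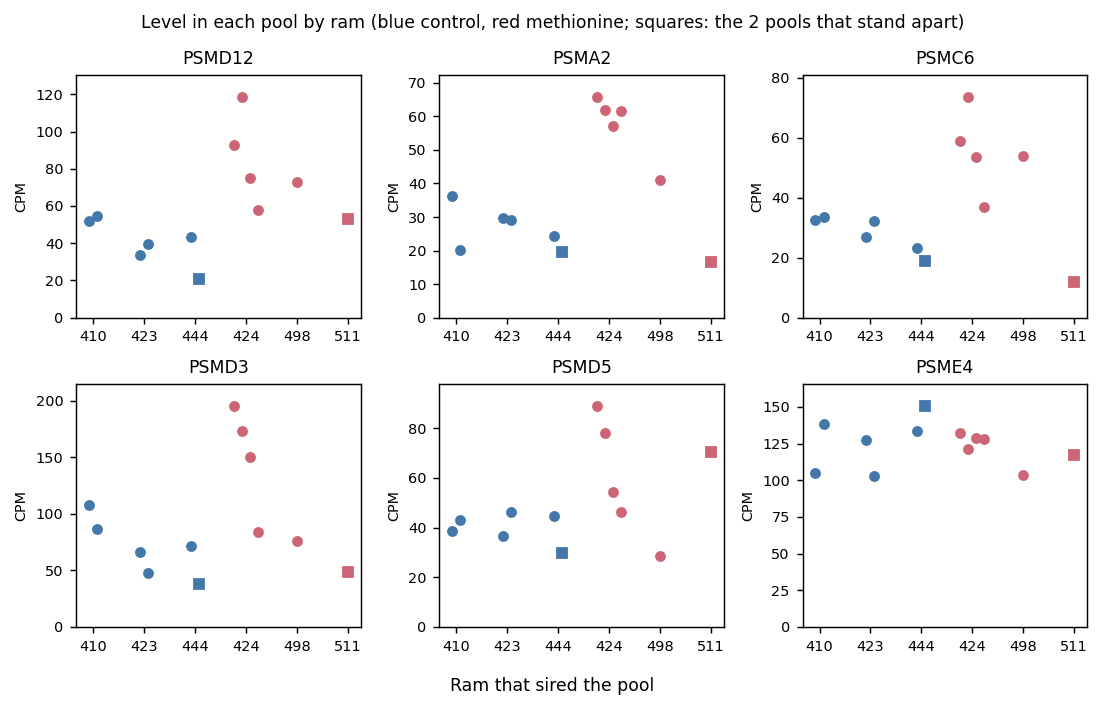
CPM in each pool (vertical axes, from 0) by the ram that sired it (horizontal axes) for the 5 genes with an unadjusted p under 0.05 and for the activator PSME4, with control pools in blue, methionine pools in red and the 2 pools that stand apart as squares. For PSMA2 the Ram424 pools are at 57.0 to 65.9 CPM and the control pools at 19.5 to 36.3 CPM, whereas PSME4 stays between 103 and 151 CPM in all 12 pools.

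The sum of the activators was not low in the pair that stands apart (285 and 278 CPM, against 199 to 297 CPM in the others), but its 4 genes did not move alike. PSME4, a large activator of the core linked to histone breakdown, was the steadiest of the genes with a mean of at least 10 CPM. It was at 105, 138, 127, 103, 134 and 151 CPM in the control pools and at 132, 122, 129, 128, 104 and 117 CPM in the methionine pools. Its coefficient of variation was 11.8%, against a median of 44.5% over the 45 genes, and its level in the pair that stands apart (151 and 117 CPM) was 118% and 91.6% of the median of the others. Its log2 fold change was -0.05 ± 0.21 (SE). PSME3, the nuclear activator, was at 35.2 to 108 CPM and within the range of the 10 pools in both pools of the pair. In Embryo511_1, however, it was at 43.8% of the median of the others. PSME1 and PSME2 form the interferon-induced activator and lie side by side. PSME1 was at 13.2 to 30.2 CPM in 11 pools and at 118 CPM in Embryo511_1, 604% of the median of the others, which gave it the highest coefficient of variation (101%). PSME2 was at 5.86 CPM in that pool, 26.6% of the median of the others, and at 14.1 to 40.5 CPM elsewhere. PSME1 overlaps EMC9 in the table of gene positions, which is of another assembly than the counts. The strand setting is not stated, and the part of this overlap in the counts of PSME1 was not tested. The log2 fold change of PSME1 was 0.86 ± 0.48 (SE) in 12 pools and -0.03 ± 0.30 without the pair, and that of PSME2 was -0.09 ± 0.37 in 12 pools. PSMF1, the inhibitor of the core, had 15.5 to 61.5 CPM in control and 11.7 to 55.2 CPM in methionine pools, and a log2 fold change of 0.05 ± 0.36.

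The assembly chaperones PSMG1 to PSMG4 pair up and guide the alpha ring. PSMG1 was among the 3 most variable genes (61.4%), at 25.8 to 95.4 CPM in the 10 concordant pools and at 7.67 and 8.79 CPM in the pair. PSMG2, its partner, was at 36.3 to 226 CPM in the 10 pools and at 30.0 and 66.4 CPM in the pair. PSMG3 had 1 count in Embryo444_2 (0.70 CPM) and was at 3.91 CPM in Embryo511_1, against 12.0 to 44.7 CPM in the others. PSMG4, one of the 3 genes with the lowest means, had 0 counts in Embryo511_1, which allows a level of up to 2.93 CPM (3 counts, counting error only). The log2 fold changes were 0.73 ± 0.46, 0.64 ± 0.42, 0.03 ± 0.58 and -0.61 ± 0.67 (SE) in order.

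The pair of pools that stand apart shared a low proteasome level but not the same genes throughout. In Embryo444_2, 29 of the 45 genes were below the lowest of the 10 other pools, 14 were within their range and 2 (PSMA8 and PSME4) were above it. In Embryo511_1, 28 were below, 13 within and 4 (PSMA7, PSMB10, PSMD9 and PSME1) above. Among all 16488 genes that passed the filter, 24.6% were below in Embryo444_2 and 26.6% in Embryo511_1, and 22% and 24.9% were above. The median gene of the 45 was at 44.2% and 43.0% of its median in the other pools, while the median over all genes tested was at 104% and 99.2%. Of the 45, 20 were below in both pools, 9 in Embryo444_2 alone, 8 in Embryo511_1 alone and 8 in neither. By subcomplex, 4 of 7 alpha ring genes, 7 of 10 beta ring genes, 5 of 6 ATPases, 9 of 13 non-ATPase genes and 4 of 4 chaperones were below in Embryo444_2, and none of the 4 activators. In Embryo511_1, the counts were 5, 6, 5, 7 and 3, and 1 activator. The marker lists that moved in the same pair are given above, and their part in these levels was not tested.

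**Figure D4:**
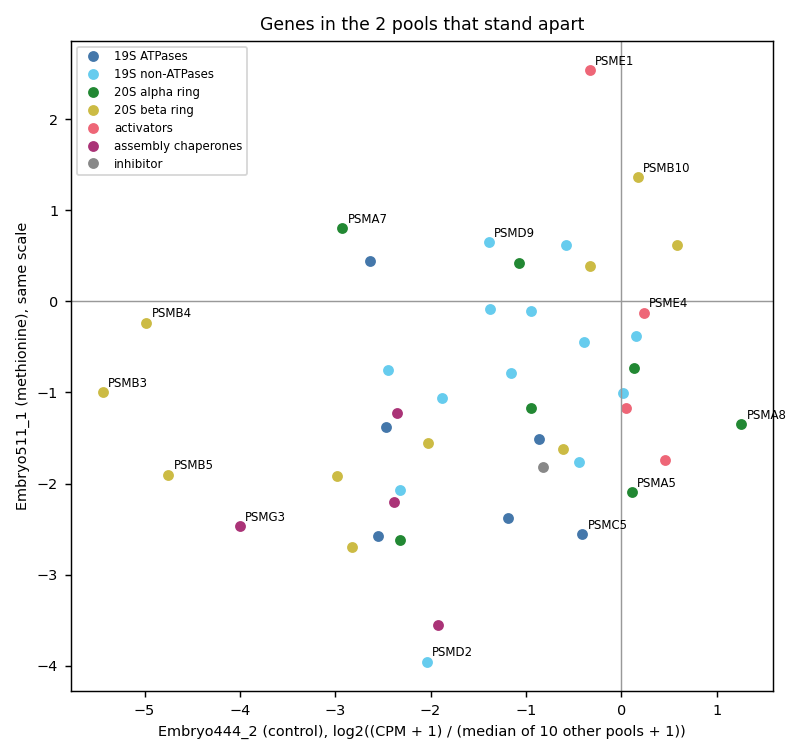
Level of each of the 45 genes in Embryo444_2 (horizontal axis) against Embryo511_1 (vertical axis), both as log2((CPM + 1) / (median + 1)) against the median of the 10 other pools, coloured by subcomplex. Most points lie at the lower left, PSMB3, PSMB4 and PSMB5 lie far left, PSMD2 lies lowest, and PSME1 lies at the top.

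Over all pools, no proteasome gene passed an FDR of 0.05 for diet by edgeR, as no gene of the 16488 did (0%), and the smallest FDR of a member was 0.584. At an unadjusted p under 0.05, 5 of the 44 members tested were higher with methionine (PSMD12, PSMA2, PSMC6, PSMD3 and PSMD5) and 0 were lower, against 3.55% of all genes higher and 4.37% lower. The likelihood-ratio test of edgeR and the Wald test of DESeq2 also called 0 members, against 0.0303% and 0.0989% of all genes. The log2 fold change was positive for 37 members and negative for 7, or 84.1% positive against 50.5% of all genes. The median was 0.36 against 0.01 over all genes, and the range was -0.86 to 0.98. No member had groups of pools that did not overlap, against 0.352% of all genes. The median biological coefficient of variation was 0.432 for the members and 0.408 for all genes. Subunits of a complex may vary together between pools, so these counts are not counts of independent genes.

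Without Embryo444_2 and Embryo511_1, 36 of 43 members had a positive log2 fold change (against 47% of all genes) and the median was 0.35. Of these, 10 were higher at an unadjusted p under 0.05 (PSMA1, PSMA2, PSMB2, PSMB6, PSMC3, PSMC6, PSMD1, PSMD3, PSMD12 and PSMG1) and 0 were lower, against 5.74% and 6.18% of all genes. None passed the FDR (smallest 0.228, PSMA2), against 0.00619% of all genes. The groups of 5 pools did not overlap for 4 members (PSMA2, PSMC6, PSMD1 and PSMD12), against 1.78% of all genes. The median biological coefficient of variation was 0.301 for the members and 0.316 for all genes. Here 4 of the 5 methionine pools came from Ram424.

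**Figure D5:**
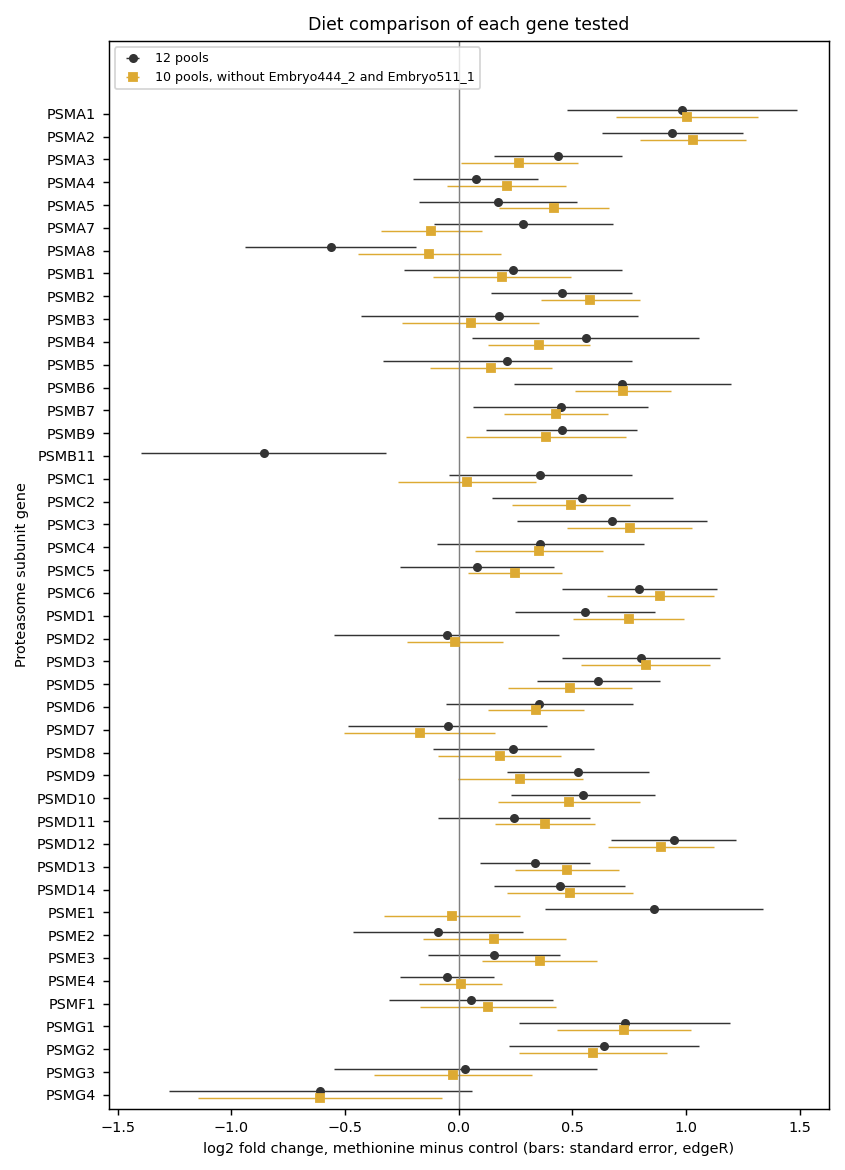
Log2 fold change, methionine minus control, of each gene tested (rows), with bars for the standard error of edgeR, in all 12 pools (circles) and without Embryo444_2 and Embryo511_1 (squares). Of the circles 37 of 44 lie right of 0 and of the squares 36 of 43, and PSME1 moves from 0.86 to -0.03.

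The direction of the proteasome genes as a group turned on Ram424. Without its 4 pools, 14 of 43 members had a positive log2 fold change, against 47.5% of all genes, and the median was -0.32. At an unadjusted p under 0.05, 1 member was higher and 1 lower, against 6.71% and 1.87% of all genes. The log2 fold change was then 0.14 for PSMA2, 0.27 for PSMC6, 0.30 for PSMD5 and 0.64 for PSMD12. With that ram and the pair of pools that stand apart both left out, which leaves 1 methionine pool (Embryo498_1) against 5 control pools, 16 of 42 were positive, against 44.6% of all genes, and the median was -0.12. No member was higher at an unadjusted p under 0.05, against 2.07% of all genes, in a fit that takes the spread from the control pools alone. In Embryo498_1, 29 of the 45 genes were within the range of the 5 concordant control pools, 6 were above it and 10 below it. Of all genes, 15.4% were above and 15.4% below. The mean of Ram424 was the highest of the 6 rams for 26 of the 45 genes. This count has no share of all genes beside it, and the means of Ram444 and Ram511 include the pair that stands apart. It therefore cannot be read as particular to these genes or to Ram424. The 4 pools of Ram424 were all above the 6 other concordant pools for 5 members (PSMA2, PSMA5, PSMB2, PSMB6 and PSMD5), against 2.43% of all genes, and all below them for 0 members. With the pools of each ram summed, so that 3 rams were compared with 3, 26 of 44 members had a positive log2 fold change, against 53.3% of all genes, and the median was 0.12. There 2 were higher at an unadjusted p under 0.05, against 1.94% of all genes. A difference between diets and a difference between Ram424 and the other rams cannot be told apart in these embryos. The same holds for the ewe or ewes mated to Ram424, as the dam of a pool was not used here.

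Among genes that act with the proteasome, none passed an FDR of 0.05 by edgeR, as no gene of the 16488 did. Of 9 assembly and associated factors tested, 7 had a positive log2 fold change, against 50.5% of all genes. PITHD1, which binds the proteasome, was the 1 with an unadjusted p under 0.05, against 3.55% of all genes higher and 4.37% lower. PITHD1 had 33.5 to 75.9 CPM in control pools. It had 159.6, 173.5, 108.5 and 79.4 CPM for Ram424, 54.0 CPM for Ram498 and 24.4 CPM for Ram511, and a log2 fold change of 0.84 ± 0.39 (SE, FDR 0.620 by edgeR). Without Ram424 the log2 fold change of PITHD1 was -0.49. POMP, the maturation factor of the core, had means of 27.4 ± 12.6 and 28.9 ± 8.995 CPM (SD, n = 6).

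Of 10 genes of proteasome gene transcription, 3 had a positive log2 fold change, against 50.5% of all genes, and the median of the 10 was -0.49. NFE2L1, the factor that raises transcription of the subunit genes when the proteasome is impaired, had 64.5 to 695 CPM in the 5 concordant control pools, 47.4 CPM in Embryo444_2, and 107 to 214 CPM in the methionine pools other than Embryo511_1 (81.1 CPM). Its log2 fold change was -0.93 ± 0.58 (SE, FDR 0.705 by edgeR). NGLY1, which removes sugars from NFE2L1 and so activates it, had 37.0 to 84.6 CPM in control pools. It had 190, 156, 62.6 and 74.6 CPM for Ram424, 75.3 CPM for Ram498 and 71.3 CPM for Ram511, with a log2 fold change of 0.81 ± 0.31 (SE, FDR 0.584 by edgeR).

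Of 13 genes of ubiquitin supply and shuttling, 11 had a positive log2 fold change, against 50.5% of all genes, and the median of the 13 was 0.28. ZFAND2A, a stress-induced protein that binds the regulatory particle, had 20.4 to 34.8 CPM in control pools. It had 62.1, 56.9, 39.6 and 34.4 CPM for Ram424, 29.65 CPM for Ram498 and 59.6 CPM for Ram511, with a log2 fold change of 0.88 ± 0.26 (SE, FDR 0.584 by edgeR).

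Of 9 genes of the interferon response and antigen processing, 3 had a positive log2 fold change, against 50.5% of all genes. The median of the 9 was -0.38. TAP2, a peptide transporter, was the 1 lower with an unadjusted p under 0.05, against 4.37% of all genes. It had 24.9 ± 16.6 CPM in control and 13.3 ± 4.50 CPM in methionine pools (SD, n = 6), a log2 fold change of -0.88 ± 0.41 (SE, FDR 0.620 by edgeR), and its highest level, 55.8 CPM, was in Embryo410_2. IFIT1, an interferon-induced gene, was at 484 CPM in Embryo511_1, and at 15.1 to 70.4 CPM in the others. In that pool IFIT2 was also high, at 150.4 CPM against 20.08 to 61.95 CPM in the others. IFIT3 was at 25.4 CPM there, within the range of the others (14.5 to 54.9 CPM), and TAP2 was at its lowest (6.84 CPM).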

How the data were processed

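RNA was measured in 12 pools of embryos. The authors amplified it, trimmed the reads with Trimmomatic, aligned them with STAR to Oar_rambouillet_v1.0 and deposited raw counts per gene and pool; the strand setting and annotation release are not given in the sources used here. The cytosine counts of sperm were not used here, since no gene coordinates of their build were at hand, and levels were not scaled for gene length for the same reason.

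Samples were grouped by the diet in their labels. A gene was kept if more than 3 pools had 15 counts or more. Counts were normalized by TMM, and diet was tested with edgeR 4.0.16 (R 4.3.3, quasi-likelihood, two-sided) with Benjamini-Hochberg FDR under 0.05 over all genes; CPM values use the TMM library sizes. Single members were also tested by exact permutation of pools (924 assignments) and of rams (20). Pools of a ram share a sire (consensus correlation 0.263, limma 3.58.1), so p-values over pools may be too small. Alternatives were the likelihood-ratio test, DESeq2 1.42.0, RLE normalization, other filters, pools summed by ram, a single pool for each ram, a random effect of ram, and rams or pools left out. Leaving out Ram424 and the 2 pools that stand apart together, and setting the pools of Ram424 or Ram498 beside the others, were chosen after the values were seen. The scripts were tested on simulated data.

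All 45 members matched a RefSeq table of ARS-UI_Ramb_v3.0, used for neighbours only, where 12 overlap another gene. Members and gene lists were chosen with earlier results of these data known. Named genes were members or listed genes with an unadjusted p under 0.05, those with the 3 highest and lowest mean levels and coefficients of variation, the constitutive and replacement pairs, the activators, the inhibitor and members that failed the filter. PSMA7, PSMD7, PSMD2, PSMC5, the chaperones, NFE2L1, POMP, TAP1, IFIT1 and other genes outside this rule were named after their values were seen. A listed gene that met this rule is not reported here. Figures used Python 3.11.15 with matplotlib 3.10.9.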

Additional observations from a re-analysis of the deposited data

Results flagged for a closer look

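In 9 of 106 groups of 6 pools tested, the highest or lowest pool lay far from the rest. Its gap, as a ratio to the range, was above Dixon's 95% critical value. Chance exceeds that value in about 1 of 20 groups of independent normal values. Pools of a ram, and sums beside their own members, are not independent, so the 9 cannot be set against that rate. Of the 9 groups, 5 were flagged for 1 of the 2 pools that stand apart. In Embryo511_1, PSMC5 was low (10.7 CPM against 60.8 to 84.1 CPM, ratio 0.682), PSMG3 was low (3.91 against 24.0 to 34.9 CPM, ratio 0.649) and PSME1 was high (118 against 13.2 to 30.2 CPM, ratio 0.837). In Embryo444_2, PSMD6 was low (14.6 against 67.0 to 94.4 CPM, ratio 0.657), as was the sum of the 19S ATPases (112 against 239 to 304 CPM, ratio 0.663). In Embryo423_1, a control pool, PSMB2 (120 against 67.6 to 87.4 CPM, ratio 0.626), PSMD7 (176 against 12.6 to 73.4 CPM, ratio 0.628) and PSMD11 (233 against 136 to 164 CPM, ratio 0.708) were high. PSMB10 was high in Embryo410_2 (15.3 against 4.89 to 6.67 CPM, ratio 0.830), at 22 counts.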

How the results depend on the processing

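The count of members with an FDR under 0.05 was 0 under every alternative run. The number higher at an unadjusted p under 0.05 was 5 of 44 members, against 3.55% of all genes. It was 2 with pools of a ram summed (1.94% of all genes) and 1 with the ram as a random effect (1.03%). Without the 2 pools that stand apart it was 10 (5.74%), and with only the first pool of each ram it was 0 (2.13%). In that last setting 23 of 42 members had a positive log2 fold change, against 53.7% of all genes. The number higher was 1 to 10 over rams and 2 to 10 over pools left out. It was lowest without Ram424 (1, against 6.71% of all genes) and highest without Ram511 (10, against 5.62%). It was 2 without Ram444 (2.51%), Embryo444_2 (3.1%) or Embryo424_2 (2.8%). The number lower was 0 to 1, with 1 lower without Ram424 or without Embryo410_1. The number positive was 14 to 40 and the median log2 fold change -0.32 to 0.60, with both low ends without Ram424. Of all genes, 47.5% were positive without Ram424 and 44.8% without Ram511, where 40 members were. Without Ram424 and the 2 pools, chosen after the data were seen, 16 members were positive, against 44.6% of all genes. The median of the members was -0.12, with 1 methionine pool assumed to vary like the control pools. There PSMD5 was at -0.55 and PITHD1 at -0.15 (log2). Over rams and pools left out, PSMD3 ranged from -0.15 to 1.11 and PITHD1 from -0.49 to 1.04. PSMA2, PSMC6, PSMD12, NGLY1, TAP2 and ZFAND2A kept their direction under all alternatives that gave a value, but not their size: without Ram424, PSMA2 was at 0.14, PSMC6 at 0.27 and NGLY1 at 0.29, and without Embryo410_2, TAP2 was at -0.47. Among listed genes at an unadjusted p under 0.05, associated factors went from 1 to 3 and interferon genes from 1 to 0 without the 2 pools. The share of all genes at such a p, in either direction, went from 7.92% to 11.9%. The cause of these changes was not tested. The methylation tests and alternatives were not run for want of gene coordinates. No paired analysis was possible because the pools carry no replicate number that control and methionine rams share. Genes with few counts, such as PSMB10, PSMB11 and PSMG4, are limited by depth.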
